A study of Mus musculus with 26 samples.

Results

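The mitochondrial ribosomal protein genes of mouse epididymal fat were described by diet and by cell fraction. The genes were taken by name, as every gene of both count files whose symbol begins with Mrpl or Mrps and a digit, and 4 pseudogene symbols were left out. This gave 76 genes of the 39017 in the files, and all 76 passed the filter on low counts in each of the main fits. The name covers 26 proteins of the small subunit, 49 of the large subunit and 1, Mrps36, that is now known as a part of the 2-oxoglutarate dehydrogenase complex and not of the ribosome. Mrps30 and Mrps18a carry small subunit names but sit in the large subunit, and they were counted there. By ancestry, 46 were classed as having a bacterial homologue and 29 as specific to mitochondrial ribosomes. The 29 include Mrps18a and Mrps18b, which are shifted copies in a family with a bacterial homologue.

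The animals were male C57BL/6J mice that began the diets at 9 to 10 weeks of age. The LFD group ate a diet with 10% fat and the HFD group a diet with 60% fat, each for 12 weeks. The SW group ate the HFD for 9 weeks and was then switched to the LFD for 3 weeks, so these mice were formerly obese. Epididymal fat was digested with collagenase and separated into floating adipocytes and the stromal vascular cells (SVC), a mixture of immune cells, progenitors and vessel cells, and polyA RNA of each was sequenced. Used here were 9 adipocyte libraries, 3 for each diet, and 6 SVC libraries, 1 of LFD, 2 of HFD and 3 of SW. The labels describe 3 SVC replicates for each diet, but 3 SVC columns matched no sample and were not used. The sample titles mark each run as paired-end or single. Every adipocyte replicate has a paired-end run, some with a single run as well, and every SVC replicate of SW has both. Some SVC replicates of HFD and LFD have only a single run. Which runs a column holds is not given, and the part of read layout in the comparisons was not tested. The deposited columns carry a number that is in no label, and it is used below as the name of a library. Nothing in the names ties a library to a mouse, so p-values measure the spread between libraries of a group.

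Mitochondrial ribosomes translate the few proteins encoded by mitochondrial DNA, all of them core subunits of the respiratory chain and ATP synthase. Their RNA comes from the mitochondrial genome, whereas all their proteins are encoded in the nucleus, made in the cytosol and imported. White adipocytes use mitochondria for lipid synthesis and fatty acid oxidation, and mitochondrial content of white fat is known to vary with nutrition.

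Library totals ran from 5781902 to 23725647 counts, and the smallest were LFD libraries. Each gene had at least 13 counts in every adipocyte library and at least 4 in every SVC library, so no gene was at 0 anywhere. Levels are library-size-scaled counts with TMM factors (CPM), fitted for each fraction on its own unless said otherwise. SW library 407 had the lowest TMM factor of the adipocyte libraries, 0.842 against 0.984 to 1.09 in the others. The SVC HFD libraries 212 and 411 were unlike each other, with 6.34% and 33.5% of counts from mitochondrial transcripts, against 4.36% to 9.54% in the other SVC libraries. A gene was called where its Benjamini-Hochberg adjusted p over all genes tested was under 0.05 in edgeR's quasi-likelihood test.

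**Figure D1:**
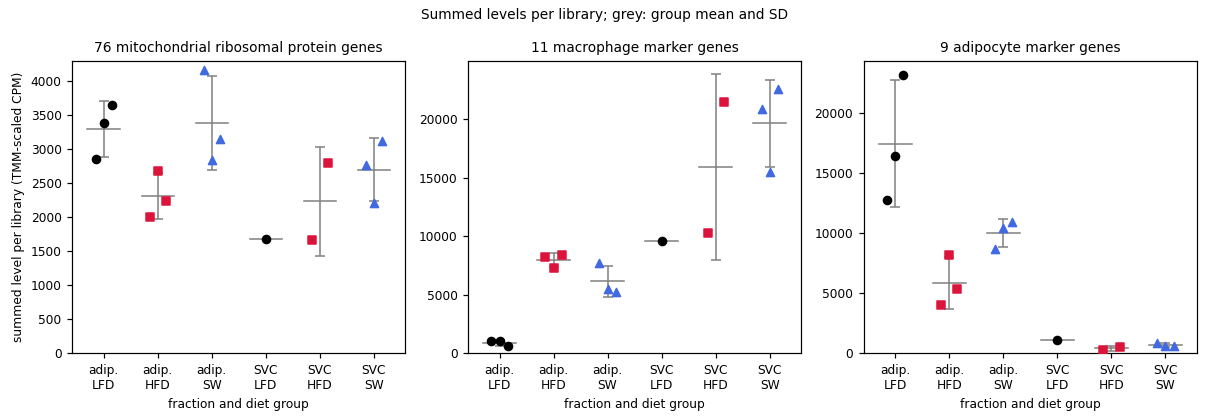
Summed level per library (TMM-scaled CPM, both fractions on 1 scale) of the 76 genes, of 11 macrophage marker genes and of 9 adipocyte marker genes, by fraction and diet group, with black circles for LFD, red squares for HFD and blue triangles for SW. Grey lines show the group mean and bars the SD, and the single SVC LFD library has no SD. The 3 HFD adipocyte libraries, at 2004 to 2674, lie below all LFD and SW adipocyte libraries in the left panel.

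Per kilobase of the principal annotated transcript (GENCODE M21), levels in LFD adipocytes spread widely among these genes. The group means of the 75 genes with a known length ran from 3.42 to 178 CPM per kilobase with a median of 29.5. Highest was Mrps6, a small subunit protein with a bacterial homologue, at 164, 172 and 197 CPM per kilobase in the 3 LFD libraries. Mrps21, a small subunit protein, read 153, 177 and 192, and Mrpl20, a large subunit protein, read 138, 149 and 139. The libraries of Mrps6 and Mrps21 overlapped, so these 2 are not ordered by their spread, while all 3 libraries of Mrpl20 lay below both. At the low end Mrpl19 read 3.01, 3.61 and 3.64 CPM per kilobase, Mrpl23, a protein near the exit of the peptide tunnel, read 2.98, 4.10 and 4.57 and Mrpl47 read 3.96, 5.04 and 5.64. The ranges of Mrpl19 and Mrpl23 overlapped, as did those of Mrpl23 and Mrpl47, while every library of Mrpl47 lay above every library of Mrpl19. Where a gene mostly uses a transcript shorter than that one, the level per kilobase is understated.

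The start regions of 67 of the 76 genes were matched by symbol in a table of RefSeq promoters (GRCm38.p6), which spans 250 bases before to 50 after each start. The sequences shown next are the 100 bases before the start, 5′ to 3′ on the gene's strand, for genes named in the results below. Capitals mark matches on either strand to 6 short words: GCATGCG (the core bound by NRF1), CCGGAAG (an ETS core, as bound by GABP), AAGATGG (YY1), GGGCGG (SP1), CACGTG (E-box) and AAGGTCA (the core bound by ERR receptors). Mrps12, Mrpl53, Mrps6 and Mrps15 were among the genes with the lowest log2 fold change in HFD adipocytes, Mrpl52 had the highest in SW against HFD, Mrpl3 moved against the rest and Mrpl50 was among the lowest in SVC. In GENCODE M21 Mrpl36 lies head to head with Ndufs6, a respiratory chain gene. Its gene start there, chr13:73328513, is outside the RefSeq window shown, so that window is not the region shared with Ndufs6.
Mrps12: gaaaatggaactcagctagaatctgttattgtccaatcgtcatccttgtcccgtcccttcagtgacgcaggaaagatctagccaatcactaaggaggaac
Mrpl53: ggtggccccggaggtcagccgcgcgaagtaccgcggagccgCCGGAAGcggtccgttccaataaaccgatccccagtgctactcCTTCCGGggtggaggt
Mrps6: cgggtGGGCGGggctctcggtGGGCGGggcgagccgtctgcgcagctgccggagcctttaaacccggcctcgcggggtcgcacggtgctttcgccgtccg
Mrps15: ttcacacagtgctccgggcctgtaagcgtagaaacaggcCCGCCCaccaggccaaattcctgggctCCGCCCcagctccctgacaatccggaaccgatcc
Mrpl52: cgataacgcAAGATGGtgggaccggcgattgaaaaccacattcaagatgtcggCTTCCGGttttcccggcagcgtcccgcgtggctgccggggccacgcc
Mrpl36: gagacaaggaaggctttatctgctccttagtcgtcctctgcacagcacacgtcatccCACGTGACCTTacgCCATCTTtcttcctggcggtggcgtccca
Mrpl3: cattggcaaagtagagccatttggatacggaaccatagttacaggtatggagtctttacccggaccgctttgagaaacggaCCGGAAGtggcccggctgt
Mrpl50: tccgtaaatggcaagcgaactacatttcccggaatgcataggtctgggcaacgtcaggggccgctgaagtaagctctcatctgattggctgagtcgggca

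These windows lie at chr7:28741822-28741921 (minus strand), chr6:83109008-83109107 (plus strand), chr16:92058236-92058335 (plus strand), chr4:126046828-126046927 (plus strand), chr14:54426809-54426908 (plus strand), chr13:73330909-73331008 (plus strand), chr9:105053168-105053267 (plus strand) and chr4:49521084-49521183 (minus strand). Within them Mrpl53 holds 2 ETS cores, Mrpl52 a YY1 and an ETS core, Mrpl36 an E-box, an ERR core and a YY1 core, Mrpl3 an ETS core, Mrps6 and Mrps15 2 SP1 words each, and Mrps12 and Mrpl50 none of the words. The E-box and the ERR core of Mrpl36 overlap by 2 bases. Mrps11 and Mrpl46, a small and a large subunit gene, start head to head in RefSeq, and their windows at chr7:78783031-78783130 (plus strand) and chr7:78783090-78783189 (minus strand) overlap, so that the same SP1 word is read from both sides.
Mrps11: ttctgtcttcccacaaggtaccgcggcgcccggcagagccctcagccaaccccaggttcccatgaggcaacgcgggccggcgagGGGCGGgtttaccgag
Mrpl46: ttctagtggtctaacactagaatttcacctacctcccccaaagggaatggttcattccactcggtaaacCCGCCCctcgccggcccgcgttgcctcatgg

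Over the whole window, from 250 bases before to 50 after the start, the ETS core was in 24 of the 67 genes (35.8%), against 9.93% of the 27025 genes in the table and 18.7% of the 10374 genes that were tested in adipocytes. The YY1 core was in 13 (19.4%, against 7.28% and 8.13%) and the NRF1 core in 8 (11.9%, against 4.01% and 6.92%). SP1 words were in 33 (49.3%), more than the 38.2% of all genes and fewer than the 67.0% of genes tested. The E-box was in 5 (7.46%, against 8.09% and 11.5%) and the ERR core in 4 (5.97%, against 5.38% and 4.01%). Genes that fell in HFD adipocytes held the ETS core in 12 of 38 and the other genes in 12 of 29. These are letter matches in a window and were given no test.

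In adipocytes of HFD mice most of these genes were lower than in LFD mice. Of 76 genes, 44 fell and 2 rose, where 25.0% of the 14461 genes tested fell and 26.5% rose. The median log2 fold change was -0.49, against -0.03 over all genes tested, and the quartiles of the genes were -0.68 and -0.27. In 50 genes all 3 HFD libraries lay below all 3 LFD libraries and in 3 genes above, where 30.5% and 32.1% of all genes did so (62.7% in either direction). Summed over the 76 genes, the level was 3243, 3789 and 4053 CPM in LFD and 2244, 2942 and 2478 CPM in HFD, with no overlap.

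**Figure D2:**
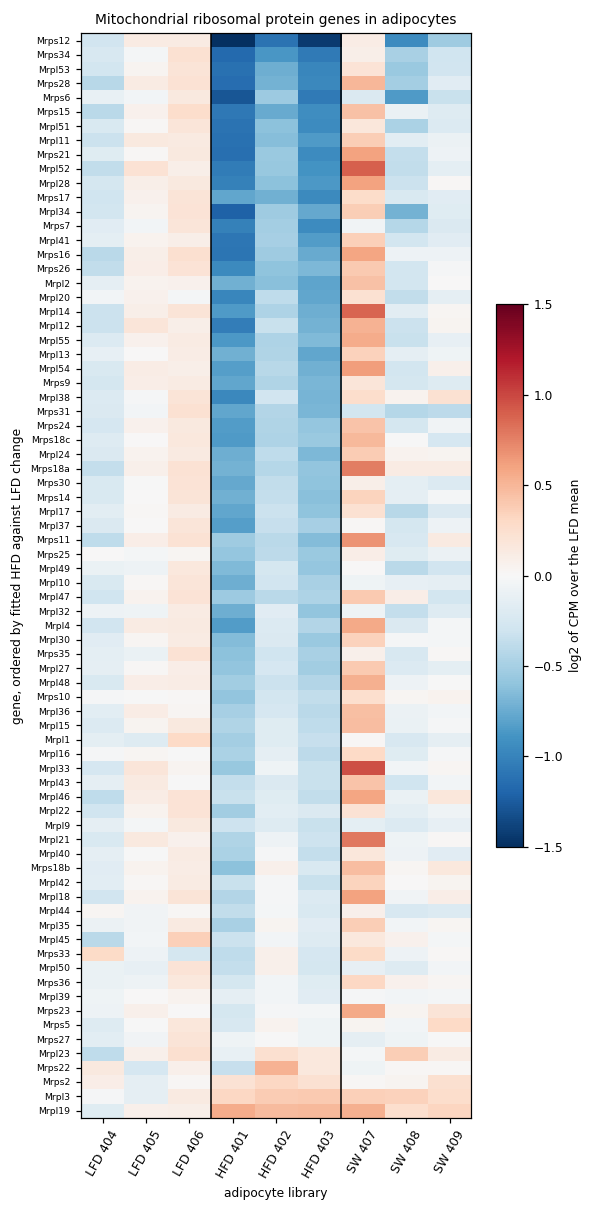
Log2 of the CPM over the LFD mean for each of the 76 genes (rows, ordered by the fitted HFD against LFD change) in the 9 adipocyte libraries (columns, with vertical lines between diets), blue for lower and red for higher. The HFD columns are blue for most rows, and the rows of Mrpl3 and Mrpl19 at the bottom are red in HFD and SW.

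Both subunits took part. In the small subunit 18 of 26 genes fell and 0 rose by edgeR, with a median of -0.61, and in the large subunit 26 of 49 fell and 2 rose, with a median of -0.47. Genes classed as having a bacterial homologue fell in 29 of 46 and rose in 2, with a median of -0.54. Those of the other class fell in 15 of 29 and rose in 0, with a median of -0.46. The differences between these classes were not tested.

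Mrps12, part of the decoding centre, had the largest fall. It read 42.3, 56.1 and 56.4 CPM in LFD, 17.1, 23.9 and 19.05 CPM in HFD and 55.9, 26.9 and 35.6 CPM in SW (log2 fold change -1.37 ± 0.25 (SE), edgeR adjusted p = 0.00151). All HFD libraries were below all LFD libraries, and the SW libraries lay above HFD and overlapped LFD. Mrps34, a small subunit protein found only in mitochondrial ribosomes, read 43.3, 49.9 and 59.99 CPM in LFD, 22.8, 27.9 and 24.5 CPM in HFD and 54.5, 36.5 and 41.6 CPM in SW (log2 fold change -1.03 ± 0.17 (SE), edgeR adjusted p = 9.3e-04). HFD lay below both other groups without overlap.

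Mrps6 read 139, 146 and 167 CPM in LFD, 61.8, 103 and 71.98 CPM in HFD and 129.5, 83.4 and 119 CPM in SW (log2 fold change -0.93 ± 0.21 (SE), edgeR adjusted p = 0.00483). Every LFD library was above every HFD and every SW library, and HFD and SW overlapped. Mrpl53, a large subunit protein without a bacterial homologue, read 37.6, 46.6 and 52.1 CPM in LFD and 20.9, 27.4 and 23.02 CPM in HFD (log2 fold change -0.93 ± 0.20 (SE), edgeR adjusted p = 0.00368). Mrps28 read 29.97, 43.3 and 46.4 CPM in LFD and 18.1, 24.4 and 20.4 CPM in HFD (log2 fold change -0.93 ± 0.26 (SE), edgeR adjusted p = 0.0121). Neither gene's groups overlapped. Mrpl10, part of the stalk that recruits translation factors, lay closest to the median of all 76, at 54.2, 64.1 and 71.6 CPM in LFD and 38.2, 52.01 and 45.3 CPM in HFD (log2 fold change -0.49 ± 0.14 (SE), edgeR adjusted p = 0.0146).

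Mrpl3 and Mrpl19, both large subunit proteins with bacterial homologues, were the genes that rose. Mrpl3, whose protein reaches towards the peptidyl transferase centre, read 28.7, 26.5 and 31.9 CPM in LFD, 35.99, 37.9 and 38.05 CPM in HFD and 37.3, 36.8 and 34.8 CPM in SW (log2 fold change 0.37 ± 0.11 (SE), edgeR adjusted p = 0.015). Mrpl19 read 15.1, 18.1 and 18.2 CPM in LFD, 25.1, 23.8 and 24.1 CPM in HFD and 24.7, 20.4 and 21.4 CPM in SW (log2 fold change 0.50 ± 0.12 (SE), edgeR adjusted p = 0.007). In both, every HFD and every SW library lay above every LFD library. Mrpl19 lost its call with the correction for transcript length described next. Mrps36, the dehydrogenase subunit, read 25.8, 26.3 and 30.9 CPM in LFD and 22.99, 26.8 and 24.3 CPM in HFD (log2 fold change -0.16 ± 0.13 (SE), edgeR adjusted p = 0.314), and its groups overlapped.

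Transcript length moved with the diet comparison across the whole table. Among the genes tested, those with a longest transcript under 1000 bases had a median log2 fold change of -0.65 between HFD and LFD, and those of 4000 bases or more a median of 0.18. The ribosomal protein genes are short, with a median of 1764 bases against 3273 for all genes tested. In the shortest class 17 of them had a median of -0.67, close to the -0.65 of all genes of the class. From 1000 to 2000 bases 24 had -0.47 against -0.33, from 2000 to 4000 bases 23 had -0.47 against -0.02, and at 4000 bases or more 11 had -0.46 against 0.18. The longer members thus lay further from other genes of their length than the short ones did. With each library's trend on length taken out, 26 fell and 4 rose (Mrps36, Mrps2, Mrpl3 and Mrps23), where 24.7% of all genes fell and 27.8% rose, and the median of the 76 was -0.22.

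**Figure D3:**
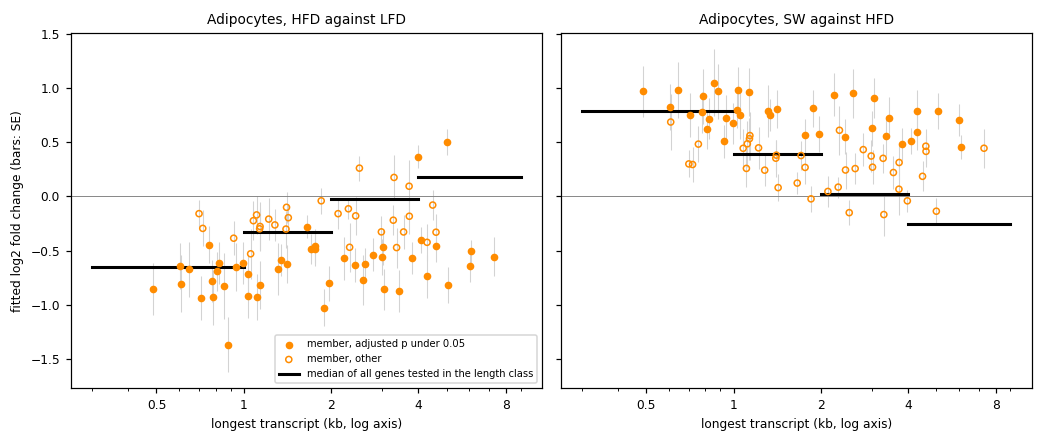
Fitted log2 fold change of each gene against the length of its longest transcript (kilobases, log axis) in adipocytes, for HFD against LFD (left) and SW against HFD (right). Filled circles are genes with an adjusted p under 0.05, grey bars are SE and black lines the median of all genes tested in each length class. Above 2 kilobases most circles lie below the black lines on the left and above them on the right, and under 1 kilobase they lie around them.

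A set of 17 genes fell under every alternative that tested them, leaving out each library in turn included: Mrps6, Mrps7, Mrps9, Mrps12, Mrps15, Mrps17, Mrps25, Mrps26, Mrps28, Mrps30, Mrps31, Mrps34, Mrpl11, Mrpl13, Mrpl28, Mrpl51 and Mrpl53. The count of genes called was 25 without LFD library 406 or without HFD library 401, 26 without HFD library 403 and 29 without LFD library 405, with medians from -0.50 to -0.40. In these 4 fits 18.1% to 20.9% of all genes fell and 20.9% to 22.6% rose.

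Markers of other cells changed in the same libraries. All 11 macrophage markers rose in HFD adipocytes, with a summed level of 691 to 1142 CPM in LFD, 8029 to 9287 CPM in HFD and 5827 to 8629 CPM in SW, and none was at 0. Of 9 adipocyte markers 7 fell and none rose, and their sums were 14532 to 25720 CPM in LFD, 4487 to 9016 CPM in HFD and 9738 to 12136 CPM in SW. In bulk RNA fewer adipocytes in a fraction and less RNA per adipocyte cannot be told apart, and the part of these shifts in the fall of the ribosomal protein genes was not tested. SW library 407 had a macrophage sum of 8629 CPM, within the HFD range, and the highest ribosomal protein sum of the 9 libraries. All 5 erythroid markers, 4 of 6 endothelial markers and 3 of 5 mesothelial markers fell in HFD. Of 7 fibroblast and progenitor markers 3 rose and 1 fell, and 0 of 6 T cell and 0 of 4 B cell markers were called by edgeR. Over all genes tested 25.0% fell and 26.5% rose in this comparison (51.5% in either direction), and these lists are short.

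After the switch back to LFD these genes were higher than in HFD adipocytes. Of the 76 genes, 37 rose and 0 fell by edgeR, where 15.6% of all genes tested rose and 15.9% fell (31.4% in either direction). In the downward direction 0 genes had an unadjusted p under 0.05, and DESeq2 and limma-voom also called 0. The median log2 fold change was 0.52, against 0.01 over all genes. In 51 genes all SW libraries lay above all HFD libraries, where 23.3% of all genes did so. Summed levels were 4671, 3182 and 3513 CPM in SW, each above every HFD library. This comparison uses the same HFD libraries as the comparison with LFD.

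Mrpl52, a large subunit protein of mitochondria, had the largest rise. It read 21.5, 29.97 and 23.7 CPM in HFD and 82.6, 34.4 and 39.99 CPM in SW (log2 fold change 1.05 ± 0.30 (SE), edgeR adjusted p = 0.0276). Library 407 was far above the other SW libraries, which were themselves above all HFD libraries. Mrps15 read 33.1, 41.1 and 36.5 CPM in HFD and 94.3, 64.9 and 60.7 CPM in SW (log2 fold change 0.99 ± 0.20 (SE), edgeR adjusted p = 0.00935). Mrpl14, which forms a bridge between the subunits, read 22.99, 29.9 and 24.9 CPM in HFD and 75.6, 36.9 and 42.1 CPM in SW (log2 fold change 0.98 ± 0.25 (SE), edgeR adjusted p = 0.0188). In each the groups did not overlap and library 407 was the highest.

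Mrps21 read 38.8, 57.7 and 43.9 CPM in HFD and 129, 66.5 and 80.3 CPM in SW (log2 fold change 0.97 ± 0.24 (SE), edgeR adjusted p = 0.0158). Mrps12 rose by 0.97 ± 0.25 (SE) on the log2 scale, from the HFD values given above, with an edgeR adjusted p of 0.0185. Smaller rises were those of Mrps10 at 0.51, near the median of the 76, Mrps9 at 0.55, Mrpl36 at 0.51, Mrps30 at 0.48 and Mrps25 at 0.46. Mrps25 is an example of a small but even shift, at 72.3, 70.7 and 73.8 CPM in LFD, 48.3, 55.1 and 49.1 CPM in HFD and 77.4, 63.9 and 68.1 CPM in SW. Here LFD and SW overlapped and HFD was below both. Mrps18a, a large subunit protein despite its name, read 28.5, 34.4 and 30.8 CPM in HFD and 79.3, 50.7 and 50.5 CPM in SW (log2 fold change 0.94 ± 0.20 (SE), edgeR adjusted p = 0.01), without overlap.

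The number of calls depended on single libraries. It was 6 without HFD library 403, where 4.25% of all genes rose, and 11 without HFD library 401, where 6.81% rose. It was 22 without SW library 407, where 1635 of 14928 genes rose, and 48 without SW library 408, where 13.2% of all genes rose. Over all removals the median stayed between 0.36 and 0.60, with 68 to 72 of the 76 genes above 0. Mrpl11, Mrpl24, Mrps15, Mrps18a and Mrps34 were called under every alternative that tested them. In this comparison short genes rose throughout the table, with a median of 0.79 under 1000 bases and -0.26 at 4000 bases or more. Members had 0.72 in the shortest class, 0.51 against 0.39 for all genes from 1000 to 2000 bases, 0.35 against 0.02 from 2000 to 4000 bases and 0.46 against -0.26 at 4000 bases or more. With the trend on length taken out, 21 rose and 3 fell (Mrpl22, Mrps36 and Mrpl44), where 10.9% of all genes rose and 13.0% fell, and the median was 0.18.

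Between SW and LFD adipocytes edgeR called 0 of the 76 genes, where 17.1% of all genes tested were called, 10.9% higher and 6.18% lower. At an unadjusted p under 0.05 there were 3, Mrpl19 and Mrpl3 (higher) and Mrps31 (lower). DESeq2 called 1, Mrpl3, and limma-voom 0. The median log2 fold change was 0.07, single genes ran from -0.44 to 0.39 and the median SE of a gene was 0.17, so shifts of this size were not detectable in most genes. Mrps14, at 62.8, 74.3 and 84.3 CPM in LFD and 92.9, 67.1 and 72.3 CPM in SW, lay closest to the median. In 3 genes all SW libraries were above all LFD libraries and in 2 below, where 19.1% and 17.5% of all genes did so. Without library 407 the median was -0.12 and Mrps12 was called lower, by 0.73 on the log2 scale.

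The other genes of mitochondrial translation were counted from lists. Of all genes tested in adipocytes, 25.0% fell in HFD and 15.6% rose in SW against HFD. Of 7 mitochondrial ribosomal proteins that carry other names, Dap3, Aurkaip1, Gadd45gip1, Mrp63 and Ict1 fell in HFD and rose in SW against HFD, and the median of the 7 was -0.66 and 0.80. Dap3, a GTP-binding protein of the small subunit, read 67.2, 70.9 and 80.8 CPM in LFD, 39.5, 54.4 and 45.4 CPM in HFD and 82.1, 63.8 and 69.0 CPM in SW. Its HFD libraries lay below the other groups. Ptcd3 and Chchd1 passed in neither comparison.

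Of 29 assembly and ribosomal RNA modification factors tested, 13 fell in HFD and 4 rose (median -0.22), and in SW against HFD 12 rose and 1 fell (median 0.25). Over all genes tested 25.0% fell and 26.5% rose in HFD, and 15.6% rose and 15.9% fell in SW against HFD. Among those that fell were Ngrn (-1.23), Trub2 (-1.22), a pseudouridine synthase, and Mettl17 (-1.11), and among those that rose Trmt2b (0.64), an RNA methyltransferase. Of 17 translation factors, 5 fell and 1 rose in HFD, so the share that fell was near that of all genes. Among them Tsfm, the exchange factor for the mitochondrial elongation factor, was at -1.21 and Lrpprc, which stabilises mitochondrial mRNA, at 0.32. Of 19 genes listed with the mitochondrial aminoacyl-tRNA synthetases, which charge the transfer RNAs, 3 fell (Cars2, Ears2 and Vars2) and none rose, with a median of -0.07. The share of this list that fell was below that of all genes. The list also holds Qrsl1 and Gatc, which are amidotransferase subunits and not synthetases. Of 9 genes for mitochondrial DNA maintenance and transcription 7 fell, Tfam, the main packaging factor, by 0.31 on the log2 scale.

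Nuclear genes for the respiratory chain and ATP synthase had 57 falls and 1 rise among 76 tested in HFD against LFD, with a median of -0.82, and 54 rises and 0 falls in SW against HFD, with a median of 0.79. Over all genes tested 25.0% fell and 26.5% rose in HFD against LFD, and 15.6% rose and 15.9% fell in SW against HFD. Cytosolic ribosomal proteins, which are also short genes of high level, had 5 falls and 1 rise among 75 in HFD, with a median of -0.10. Both shares were below those of all genes. In SW against HFD 24 of the cytosolic ribosomal protein genes rose, with a median of 0.66. Mitochondrial transcripts had 3 falls and 1 rise among 15 in HFD against LFD, also below the shares of all genes. No test compared the lists with each other.

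Of 10 regulators of mitochondrial gene programmes, Gabpa and Myc rose in HFD adipocytes and none fell, where 26.5% of all genes rose and 25.0% fell. The share of regulators called was thus not above that of all genes. Gabpa, the DNA-binding subunit of the ETS factor GABP, read 36.6, 30.1 and 26.2 CPM in LFD, 53.1, 39.7 and 44.0 CPM in HFD and 29.5, 35.6 and 32.0 CPM in SW. HFD was above both other groups without overlap, and Gabpa fell in SW against HFD by 0.49 on the log2 scale. Myc rose by 0.55, with group means of 13.1 CPM in LFD, 19.5 CPM in HFD and 27.1 CPM in SW. It did not pass in SW against HFD (0.48, edgeR adjusted p = 0.0757). In SW against LFD Myc was higher by 1.03 on the log2 scale (edgeR adjusted p = 0.00548). Ppargc1a, a coactivator of mitochondrial genes, was near 2 CPM in every adipocyte group and passed in no comparison between adipocyte groups.

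**Figure D4:**
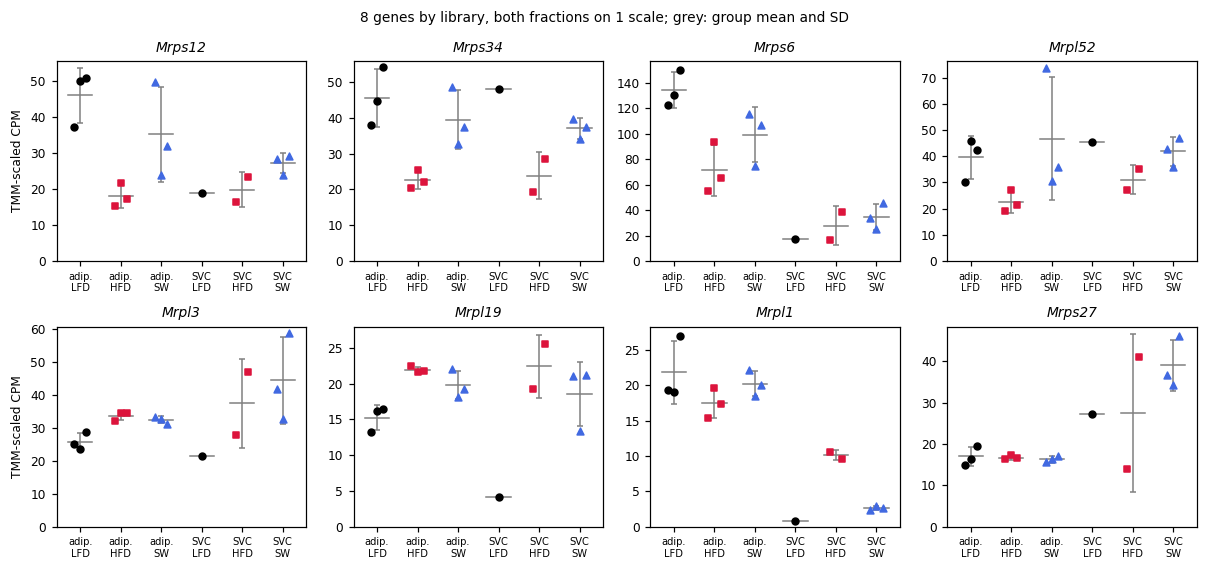
TMM-scaled CPM of 8 genes in each of the 15 libraries, with both fractions on 1 scale, by fraction and diet group (black circles LFD, red squares HFD, blue triangles SW). Grey lines are group means and bars the SD, where a group has more than 1 library. All HFD adipocyte libraries lie below all LFD adipocyte libraries for Mrps12, Mrps34 and Mrps6 and above them for Mrpl3 and Mrpl19, and Mrpl1 is low in SVC of SW.

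In SVC the genes were described with fewer libraries than the labels list, since some columns matched no sample. The single LFD library, 236, had 0.134% of its counts in the 76 genes (95% Wilson interval 0.131 to 0.137%, counting error only), against 0.206% and 0.192% in HFD and 0.225%, 0.196% and 0.236% in SW. With 1 library, LFD was given no test. Summed levels were 1354 CPM in LFD, 1567 and 2364 CPM in HFD libraries 212 and 411, and 2360, 1801 and 2618 CPM in SW. The HFD and SW libraries overlapped. In the same libraries the 11 macrophage markers summed to 7705 CPM in LFD, 9682 and 18169 CPM in HFD and 17759, 12645 and 18922 CPM in SW, with none at 0, and their part in the values was not tested.

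Between SW and HFD in SVC, 2 of the 76 genes fell and 0 rose by edgeR, where 11.7% of the 16319 genes tested fell and 5.71% rose. At an unadjusted p under 0.05, 3 were higher and 6 lower. DESeq2 called 6 genes, 5 lower and 1 higher (Mrpl10), and limma-voom 2 lower and 0 higher. In 12 genes all SW libraries lay below both HFD libraries and in 9 above, where 30.0% and 28.5% of all genes did so (58.6% in either direction). The median log2 fold change was 0.23, against 0.03 over all genes, and it was 0.01 without library 212, 0.08 without library 414 and 0.50 without library 411. Mrpl1, of the stalk that guides transfer RNA out of the ribosome, read 0.699 CPM in LFD, 9.97 and 8.14 CPM in HFD and 1.96, 2.40 and 2.19 CPM in SW (log2 fold change -2.04 ± 0.36 (SE), edgeR adjusted p = 0.0362). Mrpl50, a large subunit protein of mitochondria, read 4.71 CPM in LFD, 14.5 and 12.8 CPM in HFD and 4.84, 4.51 and 6.35 CPM in SW (log2 fold change -1.39 ± 0.31 (SE), edgeR adjusted p = 0.0407). In both, SW lay below HFD without overlap, and the LFD library was as low as SW or lower, with 4 counts for Mrpl1. Mrpl24, nearest to the median, read 33.2 CPM in LFD, 53.4 and 54.1 CPM in HFD and 64.01, 46.7 and 78.5 CPM in SW, and its groups overlapped.

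GC content moved with this comparison. Among all genes tested, those with under 45% GC had a median log2 fold change of -1.43 and those of 55% or more a median of 0.70. The 19 members under 45% GC had a median of -0.26 and the 15 members of 55% or more a median of 0.45. Mrpl1 and Mrpl50 were both under 45%. With each library's trend on GC taken out, 0 members and 0 of all genes were called. The calls also rested on the HFD libraries: without library 411, 15 genes were higher and 3 lower, where 17.4% of all genes were higher and 21.7% lower, and without library 212, 0 were called, where 3.21% of all genes were. Leaving out any SW library also left 0 calls among the members, where 0 to 3.59% of all genes were called.

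**Figure D5:**
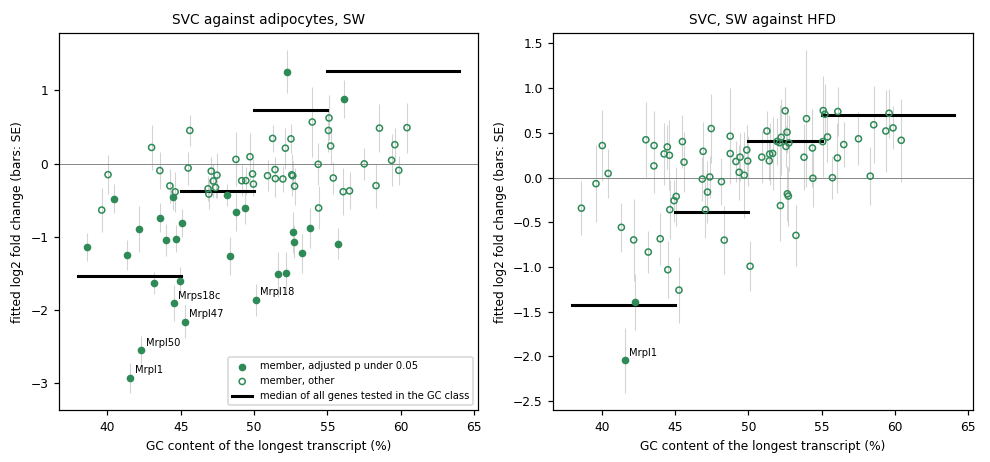
Fitted log2 fold change of each gene against the GC content of its longest transcript, for SVC against adipocytes in SW (left) and SW against HFD in SVC (right). Filled circles are genes with an adjusted p under 0.05, grey bars are SE and black lines the median of all genes tested in each GC class. The black lines climb from -1.54 to 1.26 on the left and from -1.43 to 0.70 on the right, and the medians of the genes shown climb from -0.89 to 0.04 and from -0.26 to 0.45.

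SVC were also compared with adipocytes of the same diet. In SW, 28 of 76 were lower in SVC and 2 higher, where 32.8% of the 17441 genes tested were lower and 35.6% higher (68.4% in either direction). In 31 genes all SVC libraries lay below all adipocyte libraries and in 6 above, where 35.0% and 35.8% of all genes did so (70.8% in either direction). The shares of members called lower and lying below were thus near those of all genes, and fewer were called higher. The median log2 fold change was -0.30, against 0.09 over all genes, and it was -0.46 without SVC library 412 and -0.52 without SVC library 414. In these fits both fractions were scaled together. Mrpl1 read 22.1, 18.5 and 20.05 CPM in SW adipocytes and 2.30, 2.93 and 2.61 CPM in SW SVC (log2 fold change -2.93 ± 0.20 (SE), edgeR adjusted p = 1.8e-07). Mrpl50 read 36.1, 34.4 and 38.4 CPM in adipocytes and 5.69, 5.51 and 7.58 CPM in SVC (log2 fold change -2.55 ± 0.19 (SE), edgeR adjusted p = 2.5e-07). The fractions did not overlap in either.

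Mrpl47, Mrps18c and Mrpl18 followed, with log2 fold changes of -2.16 ± 0.23, -1.91 ± 0.25 and -1.86 ± 0.22 (SE). Mrps27, a small subunit protein with RNA-binding repeats, was higher in SVC, at 36.8, 34.3 and 46.1 CPM against 15.5, 16.3 and 17.1 CPM in adipocytes (log2 fold change 1.26 ± 0.29 (SE), edgeR adjusted p = 0.00166). Mrpl4, a large subunit protein at the peptide tunnel, was also higher, at 98.4, 87.1 and 87.8 CPM against 66.3, 38.5 and 44.02 CPM (log2 fold change 0.88 ± 0.26 (SE), edgeR adjusted p = 0.0082). Neither overlapped between fractions. The smallest called differences were those of Mrps30 (-0.48), Mrps17 (-0.46) and Mrpl39 (-0.42). With the trend on GC taken out, 34 were lower and 10 higher, where 28.2% of all genes were lower and 30.1% higher. In that fit Mrps30 and Mrps17 were called higher in SVC, and Mrpl4 lost its call at a value below 0. With total counts in place of TMM factors, 54 were lower and 2 higher, while the median over all genes moved to -0.29 and all genes split into 4667 higher and 6532 lower, against 6202 and 5723 with TMM. The 9 adipocyte markers were all lower in SVC and 10 of 11 macrophage markers higher.

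In HFD, 9 genes were lower in SVC than in adipocytes and 0 higher by edgeR, where 12.9% of all genes were lower and 16.2% higher. In the upward direction 4 had an unadjusted p under 0.05, and DESeq2 and limma-voom called 0. The share called lower was near that of all genes. The median was -0.11 against 0.08 over all genes, and it was 0.23 without SVC library 212, -0.47 without SVC library 411, 0.02 without adipocyte library 402 and -0.19 without adipocyte library 401. Mrps6 read 55.2, 93.5 and 65.1 CPM in HFD adipocytes and 16.8 and 38.4 CPM in HFD SVC (log2 fold change -1.37 ± 0.36 (SE), edgeR adjusted p = 0.0125). The fractions did not overlap. Mrpl50 (-1.21), Mrpl1 (-0.79), Mrpl51 (-0.74), Mrps2 (-0.72), Mrpl44 (-0.63) and Mrpl42 (-0.56) were lower as well. With total counts 15 genes were lower, and all genes split into 1227 higher and 1775 lower, against 2834 and 2244 with TMM. In a fit of these groups alone 1 gene, Mrpl50, was called. Without SVC library 212, 8 genes were higher and 5 lower, where 21.9% of all genes were higher and 18.8% lower. Without SVC library 411, 9 were lower, where 7.75% of all genes were, without adipocyte library 402, 4 were lower (8.75%), and without adipocyte library 403, 6 were lower (9.53%).

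The change from HFD to SW was compared between the fractions in 1 contrast, the change in SVC minus the change in adipocytes. For 9 of the 76 genes it was lower in SVC and for 0 higher by edgeR, where 15.7% of all genes tested were lower and 11.4% higher. In the upward direction 0 genes had an unadjusted p under 0.05, and DESeq2 and limma-voom called 0. Both shares of members were below those of all genes. The median over the 76 was -0.26, against -0.04 over all genes. It was 0.06 without SVC library 411, with 40 genes above 0, and -0.62 without SVC library 212, with 5 above 0. Over the other removals it lay between -0.44 (without SVC library 414) and -0.13 (without adipocyte library 407). Mrpl1 had the largest difference. Its SW and HFD levels on the joint scale were 15.4, 19.7 and 17.3 CPM in HFD and 22.1, 18.5 and 20.05 CPM in SW adipocytes, against 10.6 and 9.63 CPM in HFD and 2.30, 2.93 and 2.61 CPM in SW SVC (log2 fold change -2.14 ± 0.28 (SE), edgeR adjusted p = 8.9e-04). The groups overlapped in adipocytes and not in SVC. Mrpl18, a large subunit protein with a bacterial homologue, read 31.2, 42.5 and 37.3 CPM in HFD and 64.2, 40.7 and 45.6 CPM in SW adipocytes, against 24.6 and 27.1 CPM in HFD and 14.6, 10.9 and 16.1 CPM in SW SVC (log2 fold change -1.34 ± 0.32 (SE), edgeR adjusted p = 0.00848). Mrpl1, Mrpl18 and Mrpl47 were called under every alternative that tested them. Without SVC library 411, 12 genes were lower and 2 higher, where 21.9% of all genes were lower and 16.5% higher.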

How the data were processed

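The deposited values are estimated counts per gene, written as whole numbers. To make them the authors used Bowtie2 for alignment and RSEM for counting, and the submitters' processing notes also name limma and mm9. Versions, the annotation release and whether runs were added up are not given in the sources used here. Of the value columns, 3 of the SVC table matched no sample and were not used. Totals were 5781902 to 23725647 counts, and the Wilson interval covers counting error only.

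All genes were fitted with edgeR 4.0.16 (R 4.3.3), with its expression filter at a minimum count of 10, TMM factors and the quasi-likelihood test. Adipocytes, SVC and both fractions together were fitted separately, and p-values were Benjamini-Hochberg adjusted over all genes tested at a threshold of 0.05. Each SE was derived from that test, as the absolute log2 fold change divided by the square root of the F statistic. limma-voom (limma 3.58.1), DESeq2 1.42.0, other scalings and filters, offsets for transcript length and GC content (longest transcript, GENCODE M21), thinning and leaving out each library were alternatives. The scripts were tested on simulated data. RefSeq promoters and GENCODE lengths are of GRCm38, not of mm9.

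Genes were named where they were among the 5 highest or 5 lowest called in a comparison, at most 30 in all, those eligible in most comparisons first. Also named were the 3 highest and 3 lowest levels per kilobase, genes that moved against the rest, misnamed members, those nearest the median and regulators that passed. The members, lists and rules were chosen with earlier results of these data known.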

Additional observations from a re-analysis of the deposited data

Results flagged for a closer look

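For 9 genes the SW against HFD change was unlike in SVC and adipocytes by the test of the difference itself (edgeR interaction contrast, adjusted over all genes). In each the change was lower in SVC. Over all genes 15.7% were called lower in this contrast and 11.4% higher, so the share of the 76 genes called was below that of all genes. On the log2 scale the difference was -2.14 for Mrpl1, -1.71 for Mrpl47, -1.66 for Mrps18c, -1.34 for Mrpl18, -1.33 for Mrpl50, -1.17 for Mrpl13, -1.11 for Mrpl21, -1.07 for Mrpl42 and -0.87 for Mrpl51. With each library's trend on GC content taken out, Mrpl18 was at -1.46, Mrpl21 was at -1.58, Mrpl47 was at -1.15 and Mrpl1 at -1.14, and these 4 remained called. The other 5 lost their call, with values from -1.0001 (Mrps18c) to -0.14 (Mrpl13). Mrpl51 was called under 13 and Mrpl21 under 16 of 24 settings, the main fit included. The SVC HFD group holds the libraries 212 and 411, which differed most within a group, and the part of GC content and of these libraries in the differences was not tested.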

How the results depend on the processing

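No paired analysis was possible because the deposited columns carry none of the labels' replicate numbers. The counts below are of the 76 genes alone, and the share of all genes called moved with the setting too. In the main fits that share was 51.5% between HFD and LFD adipocytes, 31.4% between SW and HFD and 17.1% between SW and LFD. It was 17.5% between SW and HFD in SVC. Between SVC and adipocytes it was 68.4% in SW and 29.1% in HFD, and for the difference between fractions 27.1%. The number of members called between HFD and LFD adipocytes was 30 with the length offset, and 25 to 48 when a library was left out. Between SW and HFD adipocytes it was 24 with the length offset and 6 to 48 when a library was left out. Between SW and LFD adipocytes it was 1 with DESeq2, 4 with the length offset and 0 to 1 when a library was left out. Between SW and HFD in SVC it was 6 with DESeq2, 0 with total counts, 4 with at least 10 counts in every library, 4 in a fit of these groups alone, 0 with the GC offset, 7 with the length offset and 0 to 18 when a library was left out. Between SVC and adipocytes in SW it was 56 with total counts, and 28 to 35 when a library was left out. In HFD it was 15 with total counts, 1 in a fit of these groups alone, 4 with the GC offset, 16 with the length offset and 4 to 13 when a library was left out. The difference of the SW against HFD change between fractions was called in 7 to 14 genes when a library was left out. Of 835 alternative values of single named genes, 723 kept direction and call, 108 kept the direction and lost the call, and 4 changed sign. Those were Mrps30 (1.10), Mrps17 (0.63) and Mrpl4 (-0.15) between SVC and adipocytes in SW with the GC offset, and Mrpl36 (-0.13) between SW and HFD adipocytes with the length offset. Causes of these shifts were not tested. With 1 library the SVC LFD group allowed no test, and with 2 libraries that differ, the SVC HFD group limits what could be detected.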

Other observations

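In GENCODE M21, 22 of 75 genes have a protein-coding neighbour that runs the other way and starts at most 1000 bases away, or overlaps by at most 300 bases at the starts, and 21 of these neighbours were tested in adipocytes and are not mitochondrial ribosomal protein genes. Mrps11 and Mrpl46, whose gene models overlap by 412 bases there, lie outside this limit. This comparison was chosen after the values were seen. Between HFD and LFD, 3 of the 21 neighbours fell and 5 rose by edgeR, where 25.0% of all genes tested fell and 26.5% rose. The share of neighbours that rose was thus near that of all genes, and the share that fell was below it. The median log2 fold change of the neighbours was -0.10, against -0.48 for the members beside them. The neighbours that fell were Ndufs6, a respiratory chain subunit beside Mrpl36, Cyb5rl beside Mrpl37 and Helq, a helicase beside Mrps18c. The neighbours that rose lay beside members that fell. Klc4, a kinesin light chain, was at 1.08 beside Mrpl2 at -0.71. Eme1, a DNA repair gene, was at 2.01 beside Mrpl27 at -0.44. Ncapd2, a condensin subunit, was at 1.29 beside Mrpl51 at -0.87. Pnpla7, a lysophospholipase, was at 0.94 beside Mrpl41 at -0.78, and Gga3, a sorting adaptor, was at 0.73 beside Mrps7 at -0.80.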
